A study of Rattus norvegicus with 30 samples.

Results

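A set of 8 potassium and chloride channel genes of the renal tubule was measured in the cortex (Cx) and the outer medulla (OM) of rats on a low-salt (LS) or high-salt (HS) diet. The 8 genes were chosen by name as channel subunits of the tubule, with earlier results of these data known, and are 8 of the 32545 genes of the count table. In some segments of the tubule, sodium is reabsorbed by transporters that also carry potassium or chloride, and these ions have to leave the cell again through channels. In the thick ascending limb and the collecting duct, potassium leaves through apical channels, where it feeds the Na-K-2Cl cotransporter or is secreted into the urine. On the basolateral side, inward rectifier channels set the membrane voltage and return the potassium taken up by the sodium pump, and chloride passes to the blood through channels that need the accessory subunit barttin. The members are *Kcnj1* (ROMK, the apical inward rectifier), *Kcnj10*, *Kcnj16* and *Kcnj15* (basolateral inward rectifier subunits), *Bsnd* (barttin), *Kcnma1* (the pore-forming subunit of the large-conductance BK channel), *Kcnq1* (a voltage-gated potassium channel) and *Kcne1* (its small accessory subunit).

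The mRNAseq libraries came from right kidneys of male Sprague-Dawley rats, an outbred strain. The labels give no age. LS rats ate 0.4% NaCl, and the HS diet held 4.0% NaCl and was eaten for 14 d (HS14) or 21 d (HS21). Each of the 6 groups of tissue and diet holds 5 libraries, 30 in all. The 3 diet groups hold different rats, and the labels do not say whether a replicate number means the same rat in both tissues. Counts on genes ranged from 13953714 to 17048749 per library in Cx LS, from 15379007 to 21842843 in Cx HS14 and from 14641135 to 15627211 in Cx HS21. In the OM they ranged from 12748841 to 14838776 on LS, from 5408126 to 16557589 at HS14 and from 12899490 to 15810724 at HS21. Levels are given in CPM, counts relative to library totals that were scaled with edgeR's TMM factors over the 30 libraries. Differences are log2 ratios with their SE from edgeR's quasi-likelihood F-test on the 10 libraries compared, and calls of raised or lowered genes needed an adjusted *P* under 0.05 over all genes tested. The table places the members on Rnor_6.0: *Kcnj1* (ENSRNOG00000059005) at chr8:33514042-33518165, *Kcnj10* (ENSRNOG00000007705) at chr13:90723092-90752581, *Kcnj16* (ENSRNOG00000004713) at chr10:99388130-99389898 and *Kcnj15* (ENSRNOG00000001656) at chr11:35568182-35585390. *Bsnd* (ENSRNOG00000006543) lies at chr5:126071846-126080698, *Kcnma1* (ENSRNOG00000005985) at chr15:344360-1047956, *Kcne1* (ENSRNOG00000001984) at chr11:32498261-32508420 and *Kcnq1* (ENSRNOG00000020532) at chr1:216293087-216630339. The libraries do not keep the strand, and among the members only *Kcnma1* has another gene of the table within its span, an snRNA with 0 counts in all libraries.

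The dissection was checked with marker lists. The summed level of 10 proximal tubule markers lay between 12280 and 28610 CPM in the Cx. In the OM it lay between 754.1 and 6337 CPM, except in replicate 2 of OM LS, which had 14520. That library also had the highest OM sum of the distal convoluted tubule list, 442.2 CPM against 33.4 to 47.4 in the other OM LS libraries, and it had the lowest sum of 7 thick ascending limb markers in the OM, 10320 CPM against 11590 to 22150. Its proximal sum lay within the range of the Cx HS21 libraries (12280 to 18920) and below that of Cx LS (26330 to 28610). In the Cx, replicate 10 of HS14 stood apart. Its proximal sum was 18470 CPM against 25360 to 27560 in the other 4 HS14 libraries, and its distal convoluted tubule sum was 3424 against 1926 to 2317. The thick ascending limb sum was 3077 against 1753 to 1999, and the intercalated cell sum 2195 against 985.3 to 1329. The principal cell sum was 1298 against 787.1 to 1050, and the leukocyte sum was lower, at 928.1 against 1255 to 1379. Replicate 10 of OM HS14 had the lowest total, 5408126 counts.

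On the LS diet the members differed between the tissues in both directions. Of the 8, *Kcnj1* was higher in the OM and *Kcnj16*, *Kcnj15* and *Kcne1* were lower, beside 21.3% of all 14295 genes tested raised and 19.5% lowered in the OM against the Cx. *Kcnj1* was at 185.9, 172.2, 161.6, 171.2 and 145.9 CPM in the 5 Cx LS libraries and at 809.6, 303.5, 730.8, 743.3 and 1148 in the 5 OM LS libraries. Every OM library lay above every Cx library, including replicate 2, which was the lowest of the OM. The log2 ratio of OM to Cx was 2.14 ± 0.28 (SE, n = 5 and 5; adjusted *P* = 0.000189). *Kcnj16* stood at 692.4 to 764.9 CPM in Cx LS and 206.0 to 264.3 in OM LS, a log2 ratio of -1.67 ± 0.09 (adjusted *P* = 1.61e-06), lower in 5 of 5 OM libraries. *Kcnj15* stood at 356.0 to 419.2 CPM in Cx LS and at 18.8, 109.1, 37.9, 29.0 and 6.11 in OM LS, with the highest value in replicate 2. Its log2 ratio was -3.28 ± 0.63 (adjusted *P* = 0.00203), lower in 5 of 5 OM libraries, and -4.11 without that replicate. DESeq2's Wald test gave it no adjusted *P* in this comparison. *Kcne1* was nearly absent from the OM: 3 of 5 OM LS libraries had 0 counts, 1 had a single count and replicate 2 had 14, against 55 to 78 counts in each Cx LS library (log2 ratio -4.36 ± 0.87, adjusted *P* = 0.00265). Without replicate 2 the log2 ratio was -7.56, a fitted value that depends on the prior count because 1 count remains in the OM. Scaling by total counts moved the median of all genes between the tissues from 0.03 to 0.27. That scaling gave 5546 genes raised and 1842 lowered, in place of 3051 and 2794. Between the tissues 6 of 7 thick ascending limb markers were raised in the OM and 0 lowered (median log2 ratio 2.26). Of 10 proximal tubule markers 8 were lowered and 1 was raised (median -3.30).

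The remaining 4 members were not called between the tissues. *Bsnd* was at 87.2 ± 5.57 CPM (SD, n = 5) in Cx LS and 92.1 ± 23.2 in OM LS, and *Kcnma1* at 1.83 ± 0.32 and 1.79 ± 1.16. *Kcnj10* had a log2 ratio of 0.39 ± 0.15 (adjusted *P* = 0.0647) and *Kcnq1* of 0.38 ± 0.23 (adjusted *P* = 0.211). Both were called higher in the OM without replicate 2 of OM LS, at 0.49 (adjusted *P* = 0.00271) and 0.56 (adjusted *P* = 0.00216). *Kcnj10* was also called with scaling by total counts, at 0.65 (adjusted *P* = 0.0204). Without replicate 5 of OM LS the values were 0.25 for *Kcnj10* and 0.24 for *Kcnq1*.

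Per kb of annotated gene length, the order of levels differed between the tissues. The places of the genes rest on these lengths, such as 585 bases for *Kcne1* and 3988 for *Kcnq1*. In Cx LS, *Kcnj16* came first with 408.9 ± 18.2 CPM per kb (SD, n = 5), followed by *Kcnj15* with 263.6 ± 16.5, *Kcnj1* with 81.7 ± 7.22, *Bsnd* with 31.7 ± 2.03 and *Kcnj10* with 20.05 ± 0.58. *Kcnq1* with 8.86 ± 0.71 and *Kcne1* with 7.77 ± 1.59 CPM per kb did not differ beyond their spread, and *Kcnma1* was lowest with 0.38 ± 0.07. In OM LS, *Kcnj1* came first with 364.8 ± 146.9 CPM per kb and *Kcnj16* next with 129.4 ± 12.1. *Bsnd* with 33.5 ± 8.45, *Kcnj15* with 27.0 ± 27.1 and *Kcnj10* with 26.5 ± 7.06 CPM per kb overlapped, *Kcnq1* stood at 11.7 ± 4.15, and *Kcne1* and *Kcnma1* both lay below 1 CPM per kb on average. The place of *Kcnj15* depended on replicate 2, which had 73.4 CPM per kb. In the other OM LS libraries *Kcnj15* was at 4.11 to 25.5, below *Bsnd* at 29.3 to 44.7.

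**Figure D1:**
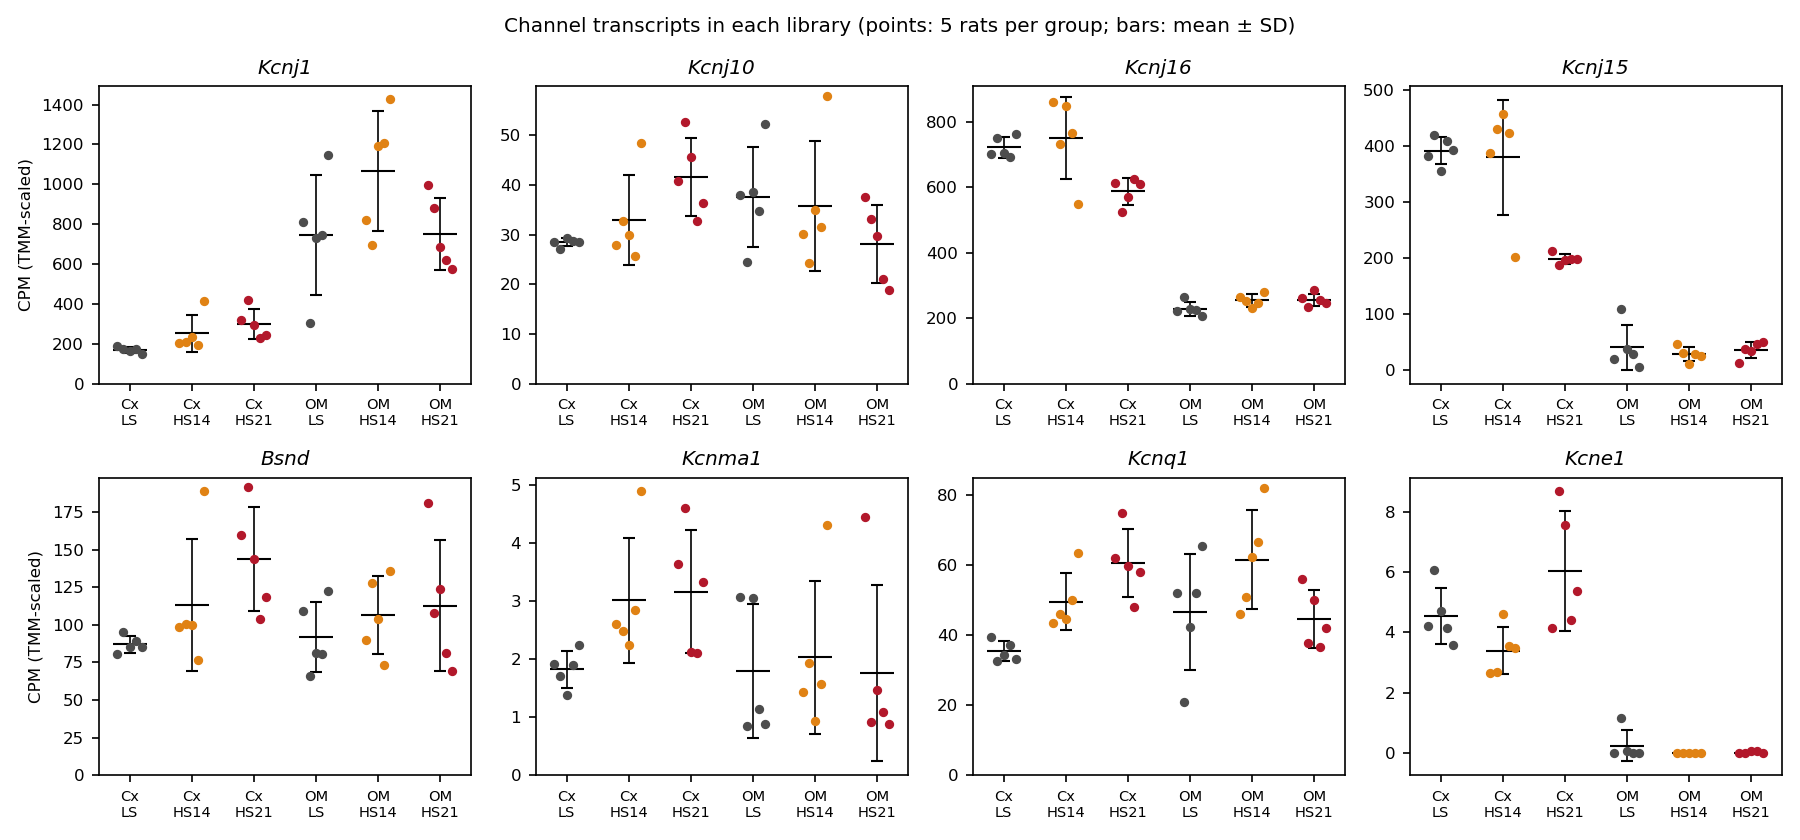
CPM of the 8 channel transcripts in each of the 30 libraries, 1 panel per gene with its own linear axis, points for the 5 rats of each tissue and diet group and bars for the mean ± SD. In the Cx the 5 HS21 points of Kcnj1, Kcnj10, Bsnd and Kcnq1 lie above and those of Kcnj15 and Kcnj16 below all 5 LS points. The share of all genes that separate in this way was not counted. Kcne1 is at or near 0 in all OM libraries but replicate 2 of LS.

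Most calls with diet were in the Cx at HS21. There 5 of the 8 members were raised relative to LS (*Kcnj1*, *Kcnq1*, *Bsnd*, *Kcnma1* and *Kcnj10*) and 2 were lowered (*Kcnj15* and *Kcnj16*), and *Kcne1* was not called. Of all 14299 genes tested in this comparison, 18.9% were raised and 20.5% lowered. In no comparison was it counted how many of all genes had groups without overlap, so a member without overlap has no such share beside it. The median log2 ratio of the 8 members was 0.62, and that of all genes tested was 0.0046. Scaling by total counts in place of TMM moved the median of all genes to 0.13 and kept the direction of all 7 called members, and limma on log2(FPKM + 1) moved that median to 0.15. Total counts gave 4401 genes raised and 1653 lowered, and limma 3861 and 1131, in place of 2702 and 2936. At HS14 only *Kcnq1* was called in the Cx, raised, and no member was lowered, beside 1.14% of 14181 genes raised and 1.18% lowered. By DESeq2's Wald test *Kcnj1* was raised as well at HS14, and no member was lowered. At an unadjusted *P* under 0.05, 3 members were raised and 0 lowered in edgeR's fit, beside 1284 raised and 1178 lowered of 14181 genes. The HS14 and HS21 comparisons share their 5 LS libraries.

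*Kcnj1* codes for ROMK, the apical channel through which potassium enters the lumen of the thick ascending limb and the collecting duct. In the Cx it was at 145.9 to 185.9 CPM on LS, at 201.8, 210.8, 234.3, 194.9 and 414.8 at HS14, and at 316.3, 417.0, 295.8, 228.9 and 243.0 at HS21. All HS14 and all HS21 libraries lay above the highest LS library. The log2 ratio at HS21 was 0.83 ± 0.14 (SE, n = 5 and 5; adjusted *P* = 0.000998), a 1.78-fold rise, and leaving out any 1 library kept it between 0.70 and 0.92. At HS14 the log2 ratio was 0.58 ± 0.19 (adjusted *P* = 0.143), and 0.31 without replicate 10, whose 414.8 CPM was far above the other HS14 libraries (adjusted *P* = 0.0511). By DESeq2's Wald test the HS14 value was 0.58 (adjusted *P* = 0.0401), and by limma on log2(FPKM + 1) it was 0.74 (adjusted *P* = 0.0167), in a setting where the median log2 ratio of all genes was 0.23 and not near 0, with 698 genes raised and 48 lowered. In bulk tissue, more cells of a type and more RNA per cell cannot be told apart, nor can fewer cells and less RNA per cell.

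*Kcnj10* and *Kcnj16* code for subunits that join to form the main basolateral potassium channel of the distal convoluted tubule. In the Cx as a whole, where the segments are mixed, their transcripts moved in opposite directions. *Kcnj10* was at 28.5, 27.2, 29.4, 28.8 and 28.5 CPM on LS and at 40.8, 52.6, 45.7, 32.7 and 36.4 at HS21, without overlap. Its log2 ratio was 0.53 ± 0.11 (adjusted *P* = 0.00319). *Kcnj16* was at 703.6, 750.7, 705.2, 692.4 and 764.9 CPM on LS and at 612.6, 523.8, 569.5, 625.6 and 609.3 at HS21, where every library lay below the lowest LS library. Its log2 ratio was -0.31 ± 0.06 (adjusted *P* = 0.00156). With limma on log2(FPKM + 1), where the median of all genes was 0.15 in place of 0.0046, *Kcnj16* was at -0.16 and not called (adjusted *P* = 0.171). At HS14 neither was called: *Kcnj10* ranged from 25.8 to 48.5 CPM (log2 ratio 0.20 ± 0.15) and *Kcnj16* from 549.7 to 860.4 (0.04 ± 0.10), with the highest *Kcnj10* and the lowest *Kcnj16* both in replicate 10. Without it the HS14 log2 ratios were 0.0027 and 0.12.

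*Kcnj15* codes for another inward rectifier subunit, found in the basolateral membrane of the proximal tubule, and it fell at HS21. It was at 382.1, 419.2, 356.0, 408.5 and 392.5 CPM in Cx LS and at 212.8, 187.4, 197.2, 197.9 and 197.8 in Cx HS21. The 5 HS21 libraries lay close together and below all LS libraries, at a log2 ratio of -0.99 ± 0.06 (adjusted *P* = 3.28e-06). At HS14, 4 libraries were at 387.4, 431.3, 457.9 and 423.1 CPM, in and above the LS range, and replicate 10 was at 202.2, among the HS21 values. The HS14 log2 ratio was -0.06 ± 0.17 (adjusted *P* = 0.896), and 0.09 without replicate 10.

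*Bsnd* codes for barttin, which carries chloride channels to the basolateral membrane. It was at 80.4, 95.4, 85.6, 89.2 and 85.3 CPM in Cx LS and at 159.9, 192.0, 144.1, 104.0 and 118.5 in Cx HS21, all above LS. The log2 ratio was 0.71 ± 0.14 (adjusted *P* = 0.0022). At HS14, 3 libraries lay just above the LS range at 98.8, 100.8 and 100.1 CPM, replicate 9 below it at 77.0 and replicate 10 at 189.5, and the log2 ratio of 0.37 ± 0.20 was not called (adjusted *P* = 0.388) and was 0.086 without replicate 10.

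*Kcnma1* codes for the BK channel, known for flow-dependent potassium secretion in the distal nephron, and was low in both tissues, with 10 to 76 counts per library. In the Cx it was at 1.91, 1.71, 1.37, 1.90 and 2.25 CPM on LS and at 3.64, 4.61, 2.13, 2.10 and 3.34 at HS21, and the ranges overlapped. The log2 ratio was 0.77 ± 0.25 (adjusted *P* = 0.0281). The call was lost when LS replicate 2, 3 or 4 or HS21 replicate 11 or 12 was left out, with an adjusted *P* up to 0.0658 and log2 ratios from 0.62 to 0.90 over the 10 fits. At HS14 the log2 ratio was 0.70 ± 0.25 (adjusted *P* = 0.162), and 0.45 without replicate 10, which had 4.90 CPM against 2.24 to 2.84 in the others.

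*Kcnq1* was raised in the Cx at both times. It was at 39.4, 32.7, 34.3, 37.1 and 33.2 CPM on LS, at 43.5, 46.0, 44.5, 49.99 and 63.5 at HS14 and at 62.1, 74.8, 59.6, 47.9 and 58.1 at HS21, and each HS library lay above every LS library. The log2 ratio was 0.47 ± 0.11 (adjusted *P* = 0.0458) at HS14 and 0.76 ± 0.10 (adjusted *P* = 0.000246) at HS21. The HS14 call was close to the threshold: of the 10 fits that left out 1 library, it held in 2, those without HS14 replicate 7 or 10 (log2 ratio 0.36 without the latter), and the adjusted *P* ranged from 0.0184 to 0.106. With all 15 Cx libraries in the fit it was 0.0585. *Kcne1*, whose product slows the opening of the Kcnq1 channel, was not called. It was at 4.20, 6.05, 4.72, 4.16 and 3.59 CPM on LS, at 2.67, 2.70, 4.60, 3.54 and 3.48 at HS14 and at 4.15, 8.68, 7.56, 4.40 and 5.38 at HS21, with overlap between all groups. Neither its log2 ratio of -0.43 ± 0.20 at HS14 (adjusted *P* = 0.292) nor that of 0.39 ± 0.23 at HS21 (adjusted *P* = 0.205) was called, and the latter was 0.24 without HS21 replicate 12.

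**Figure D2:**
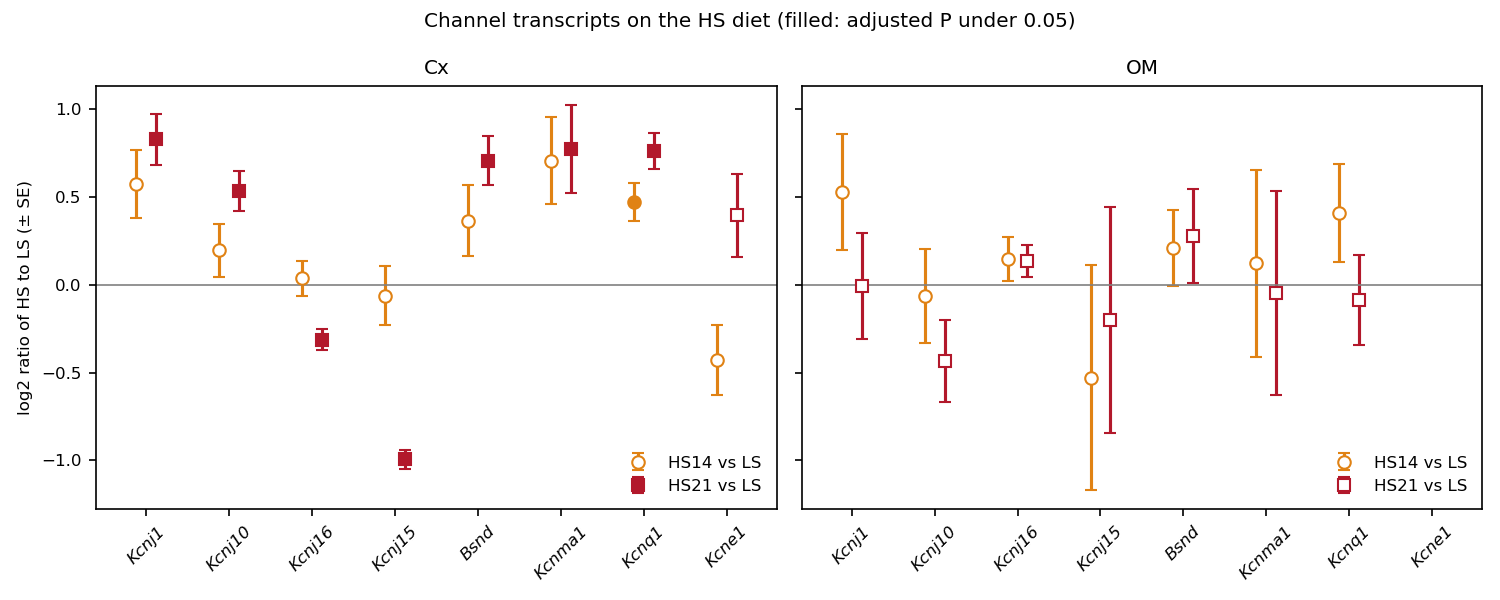
Change on the HS diet as log2 ratio to LS, with SE, for the 8 channel transcripts in the Cx (left) and the OM (right), circles for HS14 and squares for HS21, filled where the adjusted P was under 0.05. In the Cx 7 squares and 1 circle are filled, and in the OM, where Kcne1 did not pass the filter on low counts, 0 are.

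Between HS14 and HS21 in the Cx, *Kcnj15* and *Kcnj16* were lowered and *Kcne1* was raised, 1 raised and 2 lowered of 8 beside 6.50% raised and 9.69% lowered of 14395 genes. The log2 ratio of HS21 to HS14 was -0.93 ± 0.17 for *Kcnj15* (adjusted *P* = 0.00956), -0.35 ± 0.11 for *Kcnj16* (adjusted *P* = 0.049) and 0.83 ± 0.25 for *Kcne1* (adjusted *P* = 0.0426). The HS14 and HS21 ranges of each overlapped. *Kcnj15* kept its call whichever library was left out. *Kcnj16* kept it only without HS14 replicate 10, with an adjusted *P* up to 0.118 in the other 9 fits, and *Kcne1* only without HS21 replicate 11 or 14, with an adjusted *P* up to 0.0974. Without HS14 replicate 10, 4 members were raised: *Kcnj1* at 0.51 (adjusted *P* = 0.0396), *Bsnd* at 0.61 (adjusted *P* = 0.0261), *Kcnj10* at 0.52 (adjusted *P* = 0.0224) and *Kcnq1* at 0.39 (adjusted *P* = 0.0273). With it, these 4 were not called, and their log2 ratios lay between 0.25 and 0.34. The same library moved the calls over all genes to 1476 raised and 2048 lowered, from 935 and 1395. Scaling by total counts moved the median of all genes from 0.01 to 0.13, and *Kcnj16* was then at -0.23 (adjusted *P* = 0.143). With total counts 2084 genes were raised and 644 lowered, and with limma on log2(FPKM + 1) 159 and 486.

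In the OM no member was called with diet. At HS14, 0 of 7 tested members were raised and 0 lowered, beside 0.00694% and 0% of 14417 genes. At HS21, 0 of 7 were raised and 0 lowered, beside 0.639% and 0.131% of 14555 genes, and between HS14 and HS21 0 of 7, beside 0% and 0% of 14499 genes. edgeR's unadjusted *P* was under 0.05 for 0 members in both comparisons with LS and for 1, *Kcnq1* at -0.49 ± 0.20, between HS14 and HS21. DESeq2's Wald test called 0 members in all 3. Over all genes, edgeR's unadjusted *P* was under 0.05 for 617 raised and 209 lowered genes at HS14, where DESeq2 called 90 raised and 20 lowered, and for 337 raised and 210 lowered between HS14 and HS21, where DESeq2 called 20 raised and 11 lowered. At HS21 edgeR's unadjusted *P* was under 0.05 for 1012 raised and 625 lowered genes. There DESeq2 called 555 raised and 166 lowered, beside 93 and 19 called by edgeR. Leaving out 1 library moved edgeR's counts there to between 9 and 159 raised and between 0 and 31 lowered.

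In the OM, *Kcnj1* was at 809.6, 303.5, 730.8, 743.3 and 1148 CPM on LS, at 819.5, 694.3, 1190, 1205 and 1429 at HS14 and at 997.5, 881.0, 687.2, 619.0 and 575.8 at HS21. All 3 groups overlapped, and the log2 ratio to LS was 0.53 ± 0.33 at HS14 and -0.0050 ± 0.30 at HS21. Without replicate 2 of LS these were 0.32 and -0.20. Replicate 10 of HS14 had the highest HS14 CPM of *Kcnj1*, *Kcnj10*, *Kcnj16*, *Bsnd*, *Kcnma1* and *Kcnq1*. With and without it the HS14 log2 ratios were 0.53 and 0.37 for *Kcnj1*, -0.065 and -0.33 for *Kcnj10*, 0.15 and 0.095 for *Kcnj16*, 0.21 and 0.082 for *Bsnd*, 0.12 and -0.33 for *Kcnma1* and 0.41 and 0.26 for *Kcnq1*. *Kcnj10* ranged from 24.4 to 52.4 CPM on LS and from 18.9 to 37.6 at HS21 (log2 ratio -0.44 ± 0.23, adjusted *P* = 0.561). *Kcnj16* varied little in the OM, at 206.0 to 264.3 CPM on LS, 229.8 to 278.7 at HS14 and 233.9 to 284.6 at HS21 (log2 ratio 0.14 ± 0.09 at HS21, adjusted *P* = 0.67). *Kcnj15* ranged from 6.11 to 109.1 CPM on LS and from 11.6 to 50.02 at HS21, and its log2 ratio of -0.20 ± 0.65 became 0.60 without replicate 2 of LS. *Bsnd* had a log2 ratio of 0.28 ± 0.27 at HS21, and 0.030 without HS21 replicate 11. *Kcnq1* had -0.086 ± 0.26, and -0.27 without replicate 2 of LS. *Kcnma1* was between 0.84 and 3.07 CPM on LS and between 0.88 and 4.45 at HS21, the highest being replicate 11, with the next at 1.47. *Kcne1* had 0 counts in 5 of 5 OM HS14 libraries and at most 1 count in each OM HS21 library. A count of 0 allows up to 3 counts, which in the OM HS14 libraries is 0.182 to 0.516 CPM, for counting error only.

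Whether a member changed more in one tissue than in the other was asked with an interaction term of tissue and diet. At HS14, 0 of 8 members were called in either direction, beside 0% raised and 0% lowered of 15091 genes. There edgeR's unadjusted *P* was under 0.05 for 281 raised and 278 lowered genes and for 1 member, *Kcne1*, whose fitted value depends on the prior count because OM HS14 holds no count of it, and DESeq2 called 8 raised and 3 lowered genes and 0 members. At HS21, 0 of 8 members were called, beside 0.448% raised and 0.217% lowered of 15194 genes. There edgeR's unadjusted *P* was under 0.05 for 5 members, 1 raised and 4 lowered, beside 1001 raised and 1366 lowered of all genes. The OM log2 ratio exceeded that of the Cx by 0.45 ± 0.11 for *Kcnj16* (adjusted *P* = 0.0716). It was smaller than that of the Cx, with a difference of -0.98 ± 0.27 for *Kcnj10* (adjusted *P* = 0.0976), -0.85 ± 0.29 for *Kcnq1* (adjusted *P* = 0.168) and -0.84 ± 0.35 for *Kcnj1* (adjusted *P* = 0.256). The fourth lowered member was *Kcne1* (adjusted *P* = 0.275), with 0 or 1 count in the OM libraries other than replicate 2 of LS, and its log2 ratio was 0.069 without that replicate. DESeq2's Wald test called 2 of them, *Kcnj16* (adjusted *P* = 0.00164) and *Kcnj10* (adjusted *P* = 0.0246). Without replicate 2 of OM LS, edgeR called 4: *Kcnj16* at 0.53 (adjusted *P* = 0.00557), *Kcnq1* at -1.01 (adjusted *P* = 0.00649), *Kcnj10* at -1.07 (adjusted *P* = 0.0152) and *Kcnj1* at -1.02 (adjusted *P* = 0.0236). The same library moved the calls over all genes to 729 raised and 546 lowered, from 68 and 33. *Kcnj10* was also called without replicate 11 of OM HS21. In the HS21 interaction 36 markers of the tubule segment lists were tested as well. edgeR's unadjusted *P* was under 0.05 for 16 lowered and 0 raised, beside 1366 lowered and 1001 raised of all genes. Of the markers, 1 was called lowered. DESeq2 called 5 lowered and 0 raised of 30. Median differences were -2.34 for distal convoluted tubule, -0.93 for principal cell and -0.72 for intercalated cell markers. They were -0.57 for thick ascending limb and 0.45 for proximal tubule markers.

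Segment markers moved with the members in the Cx at HS21. Of the 10 proximal tubule markers, 9 were lowered and 0 raised (median log2 ratio -0.83). Their summed level was 26670, 26930, 26330, 28610 and 26960 CPM on LS, 25360, 27560, 26560, 26270 and 18470 at HS14 and 13690, 14490, 18920, 13180 and 12280 at HS21. *Kcnj15* and *Kcnj16* fell beside this list. At HS14, 2 of the 10 were lowered (median -0.13), while 5 of 8 leukocyte markers (median 0.81), 1 of 5 distal convoluted tubule markers and 1 of 7 principal cell markers were raised. From HS14 to HS21, 7 of the 10 proximal tubule markers were lowered (median -0.67) and 6 of the 8 leukocyte markers raised (median 1.12). The counts at HS14 and from HS14 to HS21 were not repeated with libraries left out. Of the 5 tested distal convoluted tubule markers, 5 were raised (median 0.79), and 3 without LS replicate 3 or without LS replicate 5. *Pvalb*, the sixth, had 0 counts in all libraries. Their sum rose from 1913, 1619, 1746, 1642 and 1461 CPM on LS to 2449, 4680, 3269, 2223 and 2284 at HS21, led by *Slc12a3*. Principal cell markers were raised in 6 of 7 (median 0.80), with sums of 703.3, 716.9, 740.3, 674.4 and 721.6 CPM on LS and 1224, 1649, 1336, 1019 and 986.4 at HS21. Intercalated cell markers, led by *Slc4a1*, were raised in 7 of 7 (median 0.69), with sums of 1067, 1183, 1128, 978.3 and 936.3 on LS and 1906, 2170, 1769, 1334 and 1511 at HS21.

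Thick ascending limb markers, led by *Umod*, were mixed, with 2 of 7 raised and 1 lowered (median 0.39), and 5 raised with scaling by total counts or with limma. Their sums were 1948, 1680, 1952, 1982 and 2264 CPM on LS and 3250, 2917, 3279, 2607 and 2467 at HS21. Glomerular markers were raised in 4 of 5 and leukocyte markers in 8 of 8, the latter with a median of 1.99 and sums, led by *Cd74*, of 913.3, 949.8, 936.9, 964.8 and 821.5 CPM on LS and 1925, 1645, 1142, 2514 and 3221 at HS21. Endothelial markers were 2 raised and 1 lowered of 5, with 0 lowered when scaled by total counts, by limma or with all 15 Cx libraries in the fit, and smooth muscle markers 2 raised of 5. In the OM at HS21, edgeR called 0 of 35 tested markers of the 5 tubule segment lists, with 0 at an unadjusted *P* under 0.05, and DESeq2 called 0. Of the 8 leukocyte markers, 5 were raised there. The part of these lists in the changes of the channel transcripts was not tested.

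**Figure D3:**
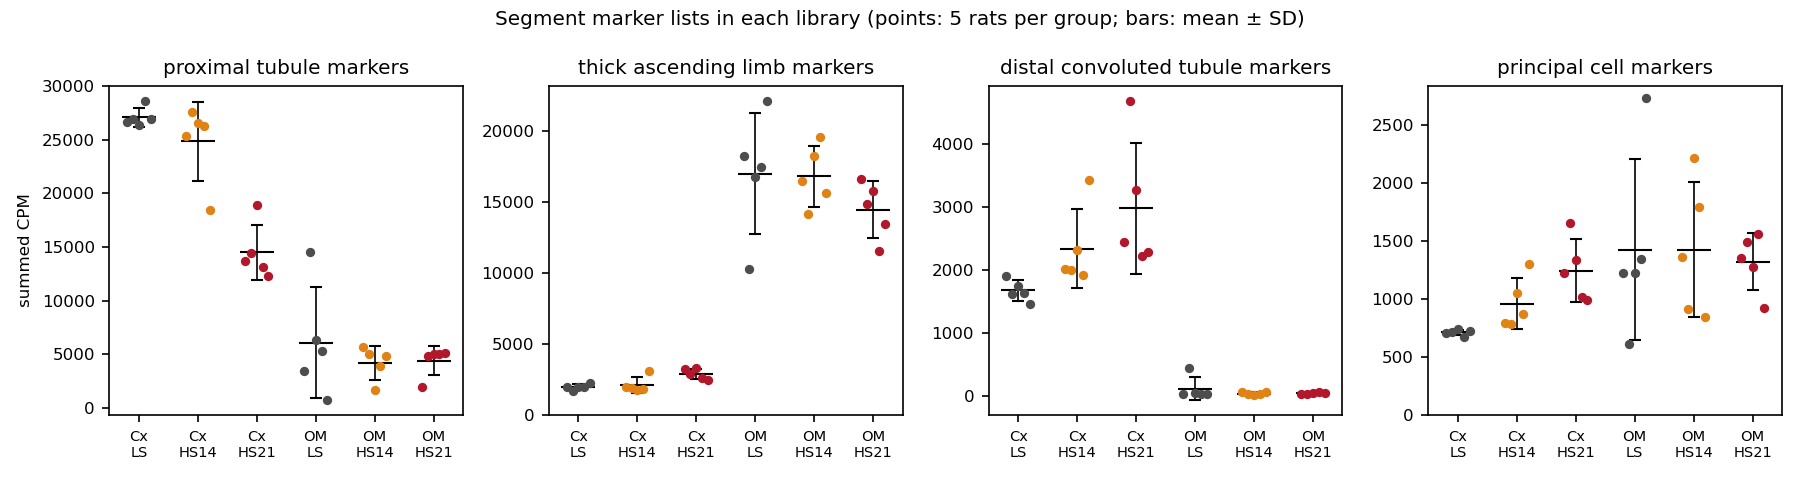
Summed CPM of the proximal tubule, thick ascending limb, distal convoluted tubule and principal cell marker lists in each library, points for the 5 rats of each group and bars for the mean ± SD, each panel with its own linear axis. The 5 Cx HS21 libraries lie below all Cx LS libraries in the proximal panel (12280 to 18920 against 26330 to 28610) and above them in the other 3.

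Ratios of a channel to a marker or partner in the same library set the members against these shifts. For each of 9 ratios the log2 of the quotient of counts per kb was compared with LS by exact permutation (two-sided, all regroupings of the 10 libraries into 5 and 5), whose smallest possible *P* is 0.00794, and adjusted over the 36 tests. The lowest adjusted *P*, 0.0571, belonged to the 5 ratios at that smallest *P*, without overlap between the groups. Over 36 tests 5 ratios at the smallest *P* have 0.0571 and 6 would have 0.0476, so that none passed 0.05 rests on how many reached it. *Kcnj10* over *Kcnj16* was at -4.31, -4.47, -4.27, -4.27 and -4.43 in Cx LS and at -3.59, -3.00, -3.32, -3.94 and -3.75 in Cx HS21, a difference of 0.83 (exact permutation *P* = 0.00794). *Kcnj16* counts were in excess per kb of annotated length in every library. A ratio in bulk tissue does not show from which segment either transcript came. *Kcnj15* over *Slc34a1* differed by -0.53 at Cx HS21. *Slc34a1* itself had a log2 ratio of -0.45 ± 0.11 there, less than the median of -0.83 of the proximal list. *Kcne1* over *Slc34a1* differed by 0.81 and *Kcnj16* over *Slc12a3* by -1.11 at Cx HS21, and *Kcne1* over *Kcnq1* by -0.90 at Cx HS14.

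*Kcnj10* over *Slc12a3* differed by -0.28 at Cx HS21 (exact permutation *P* = 0.0159, adjusted *P* = 0.0952). *Kcnj1* over *Slc12a1*, the apical channel against the cotransporter it serves in the thick ascending limb, differed by 0.40 at Cx HS14 (exact permutation *P* = 0.0317) and by 0.25 at Cx HS21 (exact permutation *P* = 0.159). In the OM it differed by 0.27 at HS14 (exact permutation *P* = 0.0238) and by 0.20 at HS21 (exact permutation *P* = 0.0317). The lowest adjusted *P* of these 4 was 0.122. *Bsnd* over *Slc12a1* differed by 0.13 at Cx HS21 and by 0.35 at OM HS21, with overlap between the groups in both. At OM HS21 the overlap came from replicate 2 of OM LS, at -4.28. The HS21 libraries lay between -4.88 and -4.36 and the other OM LS libraries between -5.29 and -4.955. Without replicate 2 the difference was 0.52 (exact permutation, adjusted *P* = 0.0816). Without replicate 10 of Cx HS14 a sixth ratio, *Kcnj15* over *Slc34a1* at 0.18 for HS14, reached the smallest *P*, which alone brought the adjusted *P* of all 6 to 0.0476. *Kcne1* over *Kcnq1* was then at -0.82 for HS14.

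**Figure D4:**
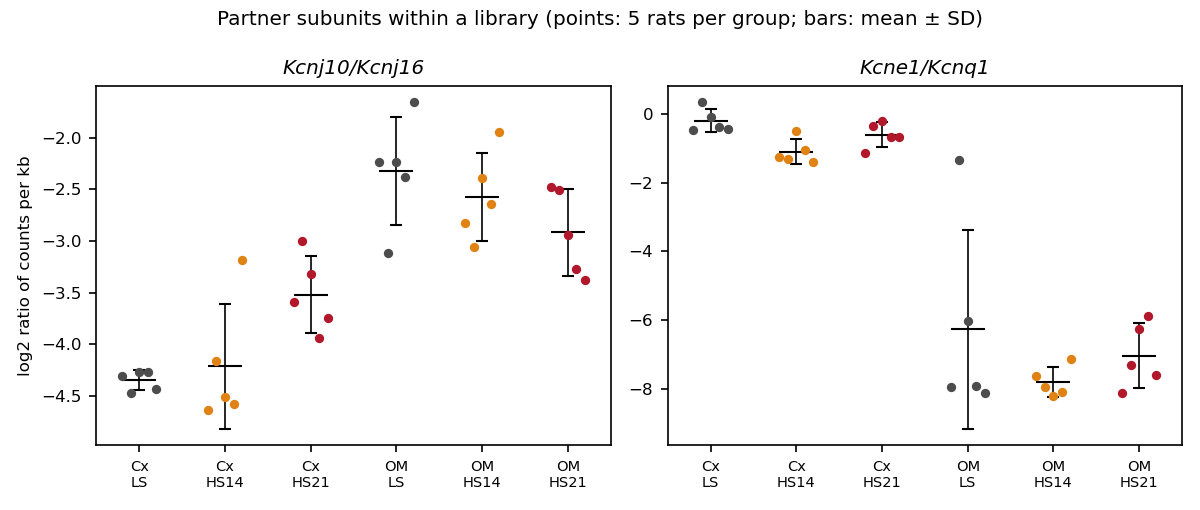
Log2 ratio of counts per kb of Kcnj10 to Kcnj16 and Kcne1 to Kcnq1 in each library, points for the 5 rats of each group and bars for the mean ± SD. In the Cx, Kcnj10/Kcnj16 is higher in all 5 HS21 than in all 5 LS libraries, and Kcne1/Kcnq1 in the OM rests on counts of 0 or 1 in all libraries but replicate 2 of LS.

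Other channel families were read as lists of related genes. At Cx HS21, 15 of 53 tested genes of these lists were raised and 15 lowered, beside 18.9% and 20.5% of all genes, and between HS14 and HS21 in the Cx 2 were raised and 10 lowered of 53, beside 6.50% and 9.69%. Of the 8 tested ClC family genes, 2 were raised and 5 lowered (median log2 ratio -0.31), with 3 lowered when scaled by total counts or by limma. *Clcn4*, an intracellular chloride-proton exchanger, was lowered at -1.25 ± 0.07 (adjusted *P* = 3.28e-06), and *Clcn5*, the endosomal exchanger of the proximal tubule, at -0.98 ± 0.17 (adjusted *P* = 0.00108). *Clcn6*, a late endosomal exchanger, was the 1 gene of the list lowered at Cx HS14, at -0.51 ± 0.09 (adjusted *P* = 0.02), and the call was lost without LS replicate 2 or 4 or HS14 replicate 8 or 9 (adjusted *P* up to 0.0556). With limma on log2(FPKM + 1), where the median of all genes was 0.23, it was -0.29 and not called (adjusted *P* = 0.172). Of 12 other chloride channel genes, 1 was raised and 5 were lowered, and scaling by total counts gave 4 raised and 3 lowered. *Lrrc8b*, a subunit of the volume-regulated anion channel, was lowered at -0.79 ± 0.09, *Tmem206*, an acid-activated chloride channel, was lowered at -0.77 ± 0.12, and *Lrrc8c*, another subunit of that anion channel, was raised at 0.55 ± 0.16.

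Among 10 tested inward rectifier genes other than the members, 3 were raised and 3 lowered at Cx HS21. *Kcnj12* fell by 1.02 on the log2 scale (SE 0.09, adjusted *P* = 1.57e-05) from 134.2 ± 12.2 to 66.7 ± 7.50 CPM (SD, n = 5). *Kcnj3*, a G protein-gated subunit with a mean of 3.45 CPM over the 10 libraries, fell by 0.83 (SE 0.26). *Kcnj13* at 1.17 ± 0.23 and the G protein-gated subunit *Kcnj9* at 1.16 ± 0.37 rose from means of 1.62 and 0.76 CPM on LS. Channels of the *Kcnk* family, which carry background potassium currents, were raised in 2 and lowered in 1 of 7, with 0 lowered when scaled by total counts, by limma or with all 15 Cx libraries in the fit. *Kcnk1* was raised at 0.80 ± 0.14 (adjusted *P* = 0.00111), *Kcnk13* was raised at 1.15 ± 0.38 and *Kcnk5*, a channel of the proximal tubule, was lowered at -0.38 ± 0.13 (adjusted *P* = 0.0389). Of 7 tested voltage-gated genes other than *Kcnq1*, 2 were raised and 1 lowered. *Kcnc4* was raised at 1.22 ± 0.17 (adjusted *P* = 0.000275) and *Kcnd3* was raised at 0.92 ± 0.32 (adjusted *P* = 0.0415). Of 5 tested accessory subunits 2 were raised, both beta subunits of voltage-gated channels, *Kcnab2* at 1.48 ± 0.25 and *Kcnab1* at 0.90 ± 0.22. Calcium- or sodium-activated channels were raised in 3 of 4. *Kcnn4*, a channel also of leukocytes, was raised at 2.46 ± 0.45 (adjusted *P* = 0.00142), and the sodium-activated channel *Kcnt1* was raised at 0.79 ± 0.12 (adjusted *P* = 0.000433).

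Some of these calls lay close to the threshold. At Cx HS21 the adjusted *P* passed 0.05 without at least 1 library for *Kcnj3* (up to 0.0681), *Kcnj9* (up to 0.0681), *Kcnk13* (up to 0.0815), *Kcnd3* (up to 0.0988) and *Kcnk5* (up to 0.106). Over the 10 fits their log2 ratios kept their direction, from -0.999 to -0.65 for *Kcnj3*, 0.90 to 1.40 for *Kcnj9*, 0.80 to 1.41 for *Kcnk13*, 0.71 to 1.08 for *Kcnd3* and -0.48 to -0.29 for *Kcnk5*. For *Kcnk5* these were LS replicates 3, 4 and 5 and HS21 replicates 11, 12, 13 and 14, and for *Kcnd3* all LS replicates and HS21 replicates 11 and 12. For *Kcnj3* they were LS replicates 4 and 5 and HS21 replicates 11, 12 and 15, for *Kcnj9* LS replicates 1, 3 and 4 and HS21 replicate 13, and for *Kcnk13* LS replicates 2, 4 and 5 and HS21 replicate 14. With limma on log2(FPKM + 1) *Kcnj3* was at -0.66 and not called (adjusted *P* = 0.074). In edgeR's fit without the filter on low counts *Kcnd3* was at 0.91 and not called (adjusted *P* = 0.0553). In the OM, edgeR called 0 genes of these channel lists at HS14, where 5 raised and 1 lowered had an unadjusted *P* under 0.05 and DESeq2 called 1 raised. At OM HS21 it called 0, and DESeq2 called 4 raised and 1 lowered. There 6 raised and 3 lowered had an unadjusted *P* under 0.05 in edgeR's fit, beside 1012 and 625 of all genes.

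For each member the genes with the most similar profile over the 30 libraries were found by the root mean square difference of centred log2 CPM among 13535 genes. *Kcnj16* was most like *Add3*, a protein of the membrane skeleton, at 0.146 and *Lamp1*, a lysosomal membrane protein, at 0.182, against an SD of *Kcnj16* itself of 0.756. *Kcnj1* was most like *Pfkp*, a glycolytic phosphofructokinase (0.218), and *Cyfip2*, a regulator of actin (0.222), with an SD of its own of 1.04. *Kcnj15* was most like another inward rectifier gene, *Kcnj12*, and the carboxylesterase gene *Ces2g* (both 0.316), with an SD of its own of 1.89. *Kcnj10* (own SD 0.376) was nearest to *Arhgef10*, a nucleotide exchange factor (0.221), and *Stard8*, a GTPase-activating protein (0.225). *Bsnd* (own SD 0.415) was nearest to *Aif1l*, an actin-binding protein (0.216), and *Kctd1*, a repressor of transcription (0.230). *Kcnq1* (own SD 0.407) was nearest to *Sowahc* (0.216) and *Cav1*, the caveolin of membrane pits (0.229). *Kcnma1*, with its low counts and an SD of 0.711, was nearest to the adhesion receptor gene *Adgrf5* (0.487) and LOC100363943 (0.493). For *Kcne1* (own SD 2.46), *Kcp*, a secreted modulator of BMP signals, was among the 2 nearest genes (0.513).

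Promoter sequences are shown for the 4 inward rectifier genes called in the Cx at HS21, 2 that rose and 2 that fell. RefSeq's table on GRCr8 held an entry for 7 of the 8 members, all but *Kcnq1*, and 2 for *Kcnj1*, of which the first is printed. The 250 bases before the transcript start are given on the plus strand, 5′ to 3′, with capitals for matches on either strand to the TATA box (TATAAA), to the CCAAT box, to the GC box (GGGCGG), to GTTAAT of the HNF1 site and to AGAACA of the steroid receptor site. They lie at chr8:39037742-39037991 (*Kcnj1*), chr13:87334260-87334509 (*Kcnj10*), chr11:48070700-48070949 (*Kcnj15*) and chr10:96517074-96517323 (*Kcnj16*).
Kcnj1: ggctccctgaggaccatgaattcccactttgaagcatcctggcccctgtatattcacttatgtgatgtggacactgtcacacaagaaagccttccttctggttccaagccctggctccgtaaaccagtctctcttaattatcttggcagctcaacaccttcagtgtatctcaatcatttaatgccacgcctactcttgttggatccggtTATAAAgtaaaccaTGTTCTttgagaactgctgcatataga
Kcnj10: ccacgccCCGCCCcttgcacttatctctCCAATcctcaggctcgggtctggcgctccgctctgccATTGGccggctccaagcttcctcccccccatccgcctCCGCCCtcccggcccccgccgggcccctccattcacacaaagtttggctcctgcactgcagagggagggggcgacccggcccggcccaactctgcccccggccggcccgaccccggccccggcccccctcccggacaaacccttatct
Kcnj15: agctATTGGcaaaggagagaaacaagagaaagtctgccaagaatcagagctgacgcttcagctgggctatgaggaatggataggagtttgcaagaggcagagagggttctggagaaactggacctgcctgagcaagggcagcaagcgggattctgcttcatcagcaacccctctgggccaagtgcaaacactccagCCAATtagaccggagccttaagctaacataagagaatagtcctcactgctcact
Kcnj16: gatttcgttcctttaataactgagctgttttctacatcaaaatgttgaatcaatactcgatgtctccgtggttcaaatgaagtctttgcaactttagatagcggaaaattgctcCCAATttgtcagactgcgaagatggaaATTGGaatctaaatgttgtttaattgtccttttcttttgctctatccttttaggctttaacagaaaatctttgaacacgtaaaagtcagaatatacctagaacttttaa
Of all 33469 entries of this length, 12.9% held the TATA box, 34.0% the CCAAT box, 30.5% the GC box, 6.45% the HNF1 letters and 17.5% the steroid receptor letters on either strand. The *Kcnj1* window held TATAAA with its first base at -41 from the start and AGAACA on the minus strand at -27. The second *Kcnj1* entry, not printed, held no TATAAA, and had CCAAT at -146 and AGAACA at -201 and -23, all on the plus strand. *Kcnj10* held GGGCGG on the minus strand at -243 and -148 and CCAAT at -222 and, on the minus strand, -185. *Kcnj15* held CCAAT at -246 on the minus strand and at -54, and *Kcnj16* at -136 and, on the minus strand, -109. GTTAAT was in none of the 4 windows. These matches describe the letters of the windows only.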

How the data were processed

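Cortex and outer medulla of the right kidney were sequenced as poly(A) mRNA from non-directional libraries, 30 in all. The authors aligned clean read pairs with HISAT2 2.0.5 to Rnor_6.0. The deposited counts are raw counts of read pairs per gene that the authors made with featureCounts 1.5.0-p3. The deposited FPKM are fragments scaled to gene length and library size that the authors computed, and the processing notes of the deposited samples also name StringTie 1.3.3b. The deposited gene length is in bases (unit: other), from the annotation the authors used, and served for levels per kb. Other deposited columns hold the authors' fold changes, *P* values and adjusted *P* values per pair of groups, and were not used.

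Each pair of groups of 5 libraries was fitted with edgeR 4.0.16 in R 4.3.3 (filterByExpr, TMM, quasi-likelihood F-test, Benjamini-Hochberg over all genes tested). Interactions used 20 libraries. Alternatives were DESeq2 1.42.0 (Wald test), scaling by total counts, no filter on low counts, limma 3.58.1 on log2(FPKM + 1), all 15 libraries of a tissue in the fit, a block by replicate number, and leaving out each library in turn. Leaving out both replicate 2 of OM LS and replicate 10 of OM HS14 was chosen after seeing the data. Ratios within a library added 0.5 to each count and were compared by exact permutation tests, two-sided. The fits were also run on simulated data, whose outcome is not reported here. Named genes were all 8 members, their partners and marker genes, up to 2 raised and 2 lowered genes per channel list and comparison with LS by absolute log2 ratio at an adjusted *P* under 0.05 and a mean of at least 1 CPM, and the 2 protein-coding genes nearest in profile to each member. Some genes that this picks, and 1 of the 9 ratios, were tested and adjusted for but are not described. The members and lists were chosen with earlier results of these data known. *Kcnk6*, *Kcna3*, *Kcnd2* and *Pacc1* were not found by symbol in the table, which holds the last under its older symbol *Tmem206*. Intervals and floors from counts cover counting error only.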

Additional observations from a re-analysis of the deposited data

Results flagged for a closer look

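In groups of 5 libraries, a value was singled out when its gap to the nearest library, divided by the range of the group, exceeded Dixon's critical value of 0.71. Of 54 groups, 6 held such a value. *Kcne1* in OM HS14, with 0 counts throughout, has no range and could not be tested. Chance gives about 1 in 20 for independent groups of normally distributed values. Of the 6 values, 4 came from the same library and are not independent. Replicate 10 of Cx HS14 was far from the other 4 libraries of its group for 4 members: *Kcnj1*, the apical potassium channel gene, at 414.8 CPM (quotient 0.821), *Kcnj15*, the proximal inward rectifier gene, at 202.2 (0.724), *Bsnd*, the barttin gene, at 189.5 (0.789) and *Kcnma1*, the BK channel gene, at 4.896 (0.772). *Kcne1*, the accessory subunit gene, was at 1.175 CPM in replicate 2 of OM LS (0.946), where the other 4 libraries held 0 or 1 count. *Kcnma1* was at 4.454 CPM in replicate 11 of OM HS21 (0.836).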

How the results depend on the processing

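DESeq2 and limma each changed scaling and test together, and limma also the input. Values of results that they moved or turned are given by alternative, and leaving out 1 library is given as the lowest and highest value. Over these results, leaving out 1 library kept 1907 values in direction and on the same side of their threshold (counts within 1.5 times), turned 66, took 61 below the threshold and 13 past it, and moved 133 counts by more. The other alternatives kept 739, turned 21, took 14 below the threshold and 5 past it, and moved 68 counts by more.

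With DESeq2's Wald test the counts were 500 genes raised and 414 genes lowered and 2 members raised for Cx HS14, 1465 genes raised for Cx HS21 vs HS14, 90 genes raised and 20 genes lowered for OM HS14, 555 genes raised and 166 genes lowered for OM HS21, 20 genes raised and 11 genes lowered for OM HS21 vs HS14, 8 genes raised and 3 genes lowered for the interaction at HS14, 337 genes raised and 201 genes lowered and 1 member raised and 1 member lowered for the interaction at HS21. In that setting, the log2 ratios that changed sign were *Kcnj1* 0.00049 for OM HS21. With limma on log2(FPKM + 1) the counts were 698 genes raised and 48 genes lowered and 2 members raised for Cx HS14, 159 genes raised and 486 genes lowered and 0 members raised and 1 member lowered for Cx HS21 vs HS14, 0 genes raised for OM HS14, 38 genes raised and 3 genes lowered for OM HS21, 11 genes raised and 1 gene lowered for the interaction at HS21, 1131 genes lowered and 1 member lowered for Cx HS21. In that setting, the log2 ratios that changed sign were *Kcnj15* 0.12 for Cx HS14, *Kcnma1* -0.015 for Cx HS21 vs HS14, *Kcnj16* -0.078 and *Bsnd* -0.022 and *Kcnma1* -0.015 for OM HS14, *Kcnj1* 0.19 and *Kcnj15* 0.35 and *Kcnq1* 0.11 and *Kcnma1* 0.0024 for OM HS21, *Kcnj16* 0.34 and *Kcnma1* 0.017 for OM HS21 vs HS14, *Kcnj16* -0.33 for the interaction at HS14. The median of all genes in that setting was 0.23, -0.066, -0.27, 0.11, 0.36 and -0.50 in these 6 comparisons in turn, so a sign there is to be read against that median.

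With all 15 libraries of the tissue in the fit the counts were 83 genes raised and 0 members raised for Cx HS14, 1500 genes raised for Cx HS21 vs HS14, 2 genes raised for OM HS14, 179 genes raised for OM HS21. With scaling by total counts the counts were 4401 genes raised and 1653 genes lowered for Cx HS21, 2084 genes raised and 644 genes lowered and 1 member lowered for Cx HS21 vs HS14, 0 genes raised for OM HS14, 35 genes raised and 9 genes lowered for OM HS21, 5546 genes raised and 1842 genes lowered and 2 members raised for OM vs Cx on LS, 54 genes lowered for the interaction at HS21. In that setting, the log2 ratios that changed sign were *Kcnj16* 0.041 for OM HS21 vs HS14, *Kcnma1* 0.23 for OM vs Cx on LS. Without the filter on low counts the counts were 0 genes raised for OM HS14, 10 genes lowered for the interaction at HS21, 0 members raised and 1 member lowered for Cx HS21 vs HS14. In that setting, the log2 ratios that changed sign were *Kcnj16* 0.0013 for OM HS21 vs HS14. With both replicate 2 of OM LS and replicate 10 of OM HS14 left out, chosen after seeing the data, the counts were 4 genes raised and 2 genes lowered for OM HS14. In that setting, the log2 ratios that changed sign were *Kcnj15* 0.31 and *Bsnd* -0.011 and *Kcnma1* -0.49 for OM HS14, *Kcnj15* 0.35 for the interaction at HS14.

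Leaving out 1 library in turn gave counts, lowest to highest, of 42 to 274 for genes raised, 43 to 232 for genes lowered, 0 to 1 for members raised (Cx HS14). 337 to 1476 for genes raised, 692 to 2048 for genes lowered, 0 to 4 for members raised, 1 to 2 for members lowered (Cx HS21 vs HS14). 0 to 4 for genes raised (OM HS14). 9 to 159 for genes raised, 0 to 31 for genes lowered (OM HS21). 0 to 1 for genes raised (OM HS21 vs HS14). 34 to 729 for genes raised, 4 to 546 for genes lowered, 0 to 1 for members raised, 0 to 3 for members lowered (tissue by diet interaction at HS21). 1 to 3 for members raised (OM vs Cx on LS). 0 to 6 for number called (ratios of 2 genes in a library).

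Over the same fits, the log2 ratios that changed sign in at least 1 fit ran from -0.018 to 0.12 for *Kcnj16*, -0.14 to 0.092 for *Kcnj15*, -0.12 to 0.24 for *Kcnj10*/*Kcnj16*, -0.032 to 0.18 for *Kcnj15*/*Slc34a1*, -0.38 to 0.033 for *Kcnj16*/*Slc12a3* (Cx HS14). -0.11 to 0.31 for *Kcnma1* (Cx HS21 vs HS14). -0.81 to 0.28 for *Kcnj15*, -0.33 to 0.070 for *Kcnj10*, -0.33 to 0.41 for *Kcnma1*, -0.19 to 0.078 for *Kcnj15*/*Slc34a1*, -0.40 to 1.09 for *Kcnj10*/*Slc12a3*, -0.28 to 0.067 for *Bsnd*/*Slc12a1* (OM HS14). -0.20 to 0.19 for *Kcnj1*, -0.48 to 0.60 for *Kcnj15*, -0.27 to 0.054 for *Kcnq1*, -0.76 to 0.23 for *Kcnma1*, -1.23 to 0.47 for *Kcne1*/*Kcnq1*, -0.17 to 0.058 for *Kcnj15*/*Slc34a1*, -0.74 to 0.53 for *Kcnj16*/*Slc12a3* (OM HS21). -0.055 to 0.048 for *Kcnj16*, -0.19 to 0.20 for *Bsnd*, -0.89 to 0.28 for *Kcnma1* (OM HS21 vs HS14). -0.050 to 0.15 for *Bsnd*, -0.30 to 0.15 for *Kcnma1* (OM vs Cx on LS). -0.28 to 0.19 for *Kcnj1*, -0.0088 to 0.16 for *Kcnj16*, -0.73 to 0.33 for *Kcnj15*, -0.30 to 0.090 for *Bsnd*, -0.28 to 0.064 for *Kcnq1* (tissue by diet interaction at HS14). -3.63 to 0.069 for *Kcne1* (tissue by diet interaction at HS21).

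A block by replicate number gave 2442 genes raised and 2569 lowered for OM vs Cx on LS, 60 and 34 for the interaction at HS21, and a log2 ratio of 0.031 for *Kcnj1* in the interaction at HS14, which changed sign. The labels do not say that equal numbers are the same rat. Over 15 pairs of libraries of equal number the correlation between the tissues ran from -0.082 to 0.51 (median 0.13), and 13 correlated best with their own number.

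The counts come from bulk tissue, with 5 rats per group. The labels do not tell in which order the kidneys were dissected or the libraries made. All HS comparisons of a tissue share its LS libraries. *Kcne1* in the OM rests on counts of 0 or 1 in all libraries but replicate 2 of LS, so its fitted values there depend on the prior count. Protein, channel activity and single cells were not measured, and the cause of the changes was not tested.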
